A study of Mus musculus with 16 samples.

Results

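The data cover the transcripts of the 20S proteasome beta subunits, encoded by Psmb1 to Psmb10, in mouse oocytes that keep or lack Psma7. They were taken by gene name: 10 genes of the 27987 gene names in the table, which fill 12 of its 28618 entries because Psmb6 and Psmb9 each have 2. Psmb1 to Psmb7 form the constitutive set of 7 genes, and Psmb8, Psmb9 and Psmb10 are the 3 immunoproteasome genes.

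Each 20S core is a stack of rings, with alpha rings outside and beta rings inside, and proteins are cut by the beta subunits within the chamber. Psmb6, Psmb7 and Psmb5 encode the subunits with caspase-like, trypsin-like and chymotrypsin-like activity, while Psmb1, Psmb2, Psmb3 and Psmb4 encode beta subunits without an active site. After interferon signalling, and in immune cells, Psmb9, Psmb10 and Psmb8 take the places of Psmb6, Psmb7 and Psmb5, which changes the peptides that are made for antigen presentation. Growing oocytes store many such transcripts, stop transcription when fully grown, and degrade part of the store during meiotic maturation.

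RNA-seq profiles were made from oocytes at the germinal vesicle (GV) stage and from ovulated metaphase II (MII) eggs, with 4 libraries in each of the 4 groups, 16 in all. WT libraries came from wildtype females, and cKO libraries from Zp3-Cre; Psma7 flox/flox females, both on a C57BL/6 background per the methods. All donors were females aged 3 to 4 weeks primed with 5 IU of PMSG: GV oocytes were taken 44 h later, whereas eggs were collected from the oviduct 14 to 16 h after a further hCG injection and freed of cumulus cells with 0.3% hyaluronidase. Cre driven by the Zp3 promoter acts in oocytes from the primary follicle onward, so the follicle cells of cKO females keep Psma7 and the alpha subunit made earlier can persist. Per the labels each library was a pool of 5 oocytes, while the methods give a larger pool, so a level is an average over several cells. The paper reports that part of the ovulated cKO oocytes stayed at the GV stage or did not complete the first meiotic division. The labels call the cKO egg libraries MII, and the stage of the single cells in these pools was not tested.

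Levels are in FPKM, the fragments of a gene divided by its length in kilobases and by the mapped fragments of the library in M (megafragments). Being per length, they can be compared between genes as far as the length used for each gene is right. They are shares of a library, so fewer copies of 1 transcript and a change in the total RNA of a cell cannot be told apart. Priming was with oligo-dT and poly(A) tail length was not measured, so fewer copies and a shorter tail cannot be told apart either. Percentages of a GV mean are therefore those of captured transcript. The small values were whole multiples of a step, which gave 10.5 to 15.7 M fragments per library (median 13.6 M). They also gave the smallest number of fragments that each value allows. The targeted gene followed the labels, since Psma7 averaged 165 FPKM in WT against 14.6 in cKO GV oocytes, while eggs had 126 (WT) and 39.7 (cKO). Psma7 was uneven in cKO eggs, at 13.6 to 59.9 FPKM, against 11.1 to 18.0 in cKO GV oocytes and 97.7 to 172 in WT eggs. From GV oocyte to egg it rose in cKO (log2 fold change 1.27, limma adjusted p = 0.0188). In WT it fell (log2 fold change -0.41, limma adjusted p = 0.0407). All 10 oocyte markers examined averaged at least 1 FPKM in each group, with a summed level of 5274 to 14668 FPKM per library. Of 10 cumulus and granulosa markers only Cyp19a1 (6.20 to 15.2 FPKM) and Kitl (3.24 to 7.16) did so. Fshr and Inha, each detected in 11 libraries, reached at most 0.862 and 0.815 FPKM, and Amh and Foxl2 at most 0.05 and 0.03.

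Positions are those of build GRCm38, which is the authors' mm10. Psmb1 is on the minus strand at chr17:15475021-15499751, Psmb2 on the plus strand at chr4:126677630-126709714, and Psmb3 on the plus strand at chr11:97703399-97713500. Psmb4 is on the minus strand at chr3:94884093-94886961, Psmb5 on the minus strand at chr14:54614119-54618022, Psmb6 on the plus strand at chr11:70525367-70527858, and Psmb7 on the minus strand at chr2:38588036-38644087. The immunoproteasome genes are Psmb8 on the plus strand at chr17:34197721-34201454, Psmb9 on the minus strand at chr17:34181987-34187764, and Psmb10 on the minus strand at chr8:105935735-105938444. Smart-seq2 libraries carry no strand, so reads in a stretch shared by genes on opposite strands cannot be separated by strand. By gene span, Psmb7 overlaps Nek6 and the pseudogene Gm13586, Psmb9 overlaps Tap1, and Psmb8 and Psmb10 overlap the antisense genes Gm20496 and Gm16156. Whether their exons overlap was not examined.

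The 3′ ends are shown first, because the members split by their level in eggs and signals near the 3′ end are known to act on stored oocyte transcripts. Each line holds 30 bases of the 3′ untranslated part of the principal GENCODE M21 transcript, 5′ to 3′, around the last AATAAA or ATTAAA poly(A) signal, which stands in capitals.
Psmb7: ctcaattaaaataaataAATAAAaagacaa
Psmb5: tgggtctccatggctatAATAAAtaatagt
Psmb1: tgtttttgcttttttttAATAAActtctgt
Psmb6: ataccgacgcagaagctAATAAAcagtttg
Psmb3: cttttgtttttctttttAATAAAattgcct
The windows are chr2:38588044-38588073 for Psmb7, chr14:54614129-54614158 for Psmb5, chr17:15475030-15475059 for Psmb1, chr11:70527615-70527644 for Psmb6 and chr11:97713464-97713493 for Psmb3. Among the last 100 bases of 17277 principal transcripts, 73.7% held AATAAA or ATTAAA on the transcript strand, and Psmb4 was the 1 member that did not. The cytoplasmic polyadenylation motifs TTTTAT or TTTTAAT were held by 16.2%, and among the members by Psmb1 and Psmb3, in both as TTTTAAT overlapping the first bases of AATAAA. These are the annotated ends, and the ends used in these cells were not measured.

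In WT GV oocytes the constitutive transcripts spanned a wide range of levels. Psmb2 averaged 368 ± 76.0 FPKM (SD, n = 4) and Psmb7 300 ± 44.5, and their ranges over libraries overlapped. Psmb3 (60.1 ± 8.86 FPKM), Psmb1 (42.1 ± 8.24) and the first Psmb6 entry (38.5 ± 11.3) followed, each overlapping its neighbour in this order. Psmb5 (17.8 ± 1.16 FPKM) and Psmb4 (15.4 ± 3.35) were lowest of the 7 and also overlapped. Psmb2 and Psmb7 together with Psmb3 thus made up most of the constitutive sum, with 43.5%, 35.7% and 7.15% of it.

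In WT eggs the order was different, although the summed level of Psmb1 to Psmb7 was still 443 ± 32.7 FPKM against 842 ± 138 in WT GV oocytes. Psmb2 took 72.5 ± 2.91% of that sum and Psmb3 16.9 ± 0.646%, whereas Psmb7 took 1.79 ± 0.0836%. Psmb2, Psmb3 and Psmb6 each had a range that did not reach the next member, and Psmb7 (7.93 ± 0.738 FPKM) now overlapped Psmb1 (6.39 ± 1.11).

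**Figure D1:**
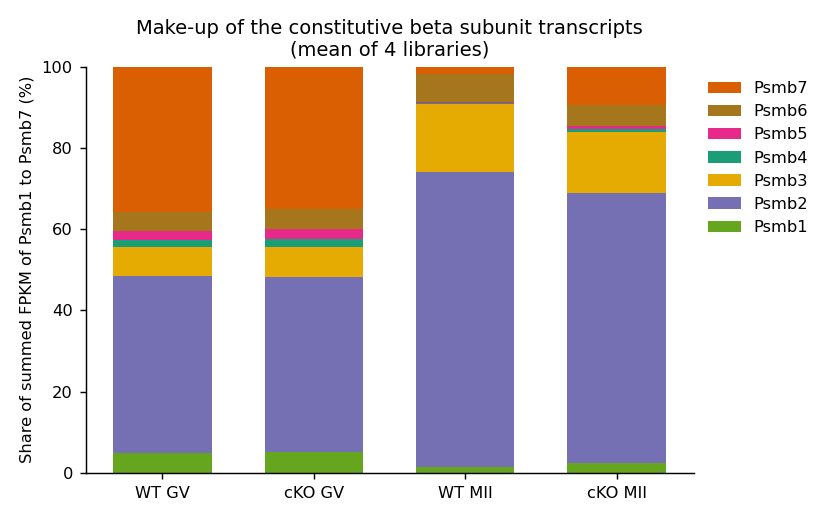
Share of each constitutive subunit transcript in the summed FPKM of Psmb1 to Psmb7, in percent, as the mean of 4 libraries for each of the 4 groups on the horizontal axis. Psmb7 goes from 35.7% of the sum in WT GV oocytes to 1.79% in WT eggs and is 9.55% in cKO eggs, while Psmb2 goes from 43.5% to 72.5% and 66.4%.

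The first comparison asked whether the beta subunit transcripts differed in GV oocytes that lack Psma7. Of the 12 entries, 7 averaged 1 FPKM or more in the 8 libraries and could be tested, 1 for each constitutive gene. None of these 7 passed an adjusted p of 0.05 by limma, where 0.118% of all 11062 tested entries did (0.0994% higher and 0.0181% lower). At an unadjusted p under 0.05 the count was also 0 of 7, with 843 higher and 339 lower among all 11062 entries, and the lowest p of a member was that of Psmb5 (0.0744).

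Among the catalytic members, Psmb5 had 18.2, 19.0, 17.7 and 16.2 FPKM in the WT GV libraries and 21.5, 17.7, 22.4 and 20.8 in the cKO ones. The 2 sets overlapped through cKO GV replicate 2, and the log2 fold change was 0.21 (standard error 0.10, limma adjusted p = 0.522). Psmb7 had 267, 280, 366 and 288 FPKM in WT and 310, 266, 245 and 297 in cKO, a log2 fold change of -0.10 (standard error 0.12, limma adjusted p = 0.823). Psmb6, the partner that Psmb9 can replace, was the least even between replicates: in GV oocytes its first entry ranged from 27.3 to 53.4 FPKM in the WT libraries and from 17.4 to 75.4 FPKM in the cKO ones. The cKO spread, a coefficient of variation of 62.3%, was far above the 4.41% that counting 282 to 822 fragments would give, so the log2 fold change of -0.10 carried a standard error of 0.37.

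Of the members without an active site, Psmb4 had the smallest difference in GV oocytes, with 15.4 ± 3.35 FPKM in WT and 15.4 ± 2.66 in cKO (log2 fold change 0.0038, standard error 0.17). Psmb1 (log2 fold change -0.05), Psmb2 (-0.08) and Psmb3 (-0.02) had limma adjusted p between 0.870 and 0.973. For each of these 4 genes the WT and cKO ranges overlapped.

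The second question was what maturation from GV oocyte to egg did to these transcripts in WT. Psmb7, Psmb4, Psmb5 and Psmb1 fell and Psmb3 rose, so 5 of the 7 tested members passed, where 78.5% of 10475 tested entries passed in either direction, 52.4% lower and 26.1% higher. The share of members called is thus near that of all entries, and what differs among the members is the size of the change. The median over all entries was a log2 fold change of -0.44, which became -0.22 when libraries were rescaled by their median ratio, and changes are to be read against that shift.

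Psmb7, whose product carries the trypsin-like activity, went from 267, 280, 366 and 288 FPKM in WT GV libraries to 7.50, 8.93, 7.27 and 8.04 in WT eggs. Every egg library lay far below every GV library, at 2.64 ± 0.246% of the GV mean (log2 fold change -5.23, standard error 0.11, limma adjusted p = 3.40e-10). Psmb5, of the chymotrypsin-like site, went to 1.67, 1.26, 1.28 and 0.697 FPKM, or 6.89 ± 2.25% of the GV mean (log2 fold change -3.79, standard error 0.16, limma adjusted p = 5.02e-09). These egg levels rest on 8 to 18 fragments per library, and the 1 value under the floor of 1 FPKM was tested as 1.

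Psmb4 and Psmb1, of the members without an active site, also fell. Psmb4 went from 13.3, 12.2, 19.5 and 16.8 FPKM in WT GV oocytes to 1.11, 1.01, 0.736 and 0.959 in WT eggs. That is 6.18 ± 1.02% of the GV mean, from 10 to 14 fragments per egg library (log2 fold change -3.88, standard error 0.16, limma adjusted p = 4.73e-09). Psmb1 kept 15.2 ± 2.64% of its GV mean, with 42.1 ± 8.24 FPKM in GV oocytes and 6.39 ± 1.11 in eggs (log2 fold change -2.72, standard error 0.16, limma adjusted p = 7.92e-08).

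The other 3 constitutive transcripts had log2 fold changes of less than 0.4 in size. Psmb3 had 55.8, 53.1, 73.0 and 58.5 FPKM in WT GV oocytes and 76.8, 80.4, 67.8 and 74.2 in WT eggs, so that the ranges overlapped only through WT GV replicate 3. It rose by a log2 fold change of 0.32 (standard error 0.11, limma adjusted p = 0.0167), a call that was lost without WT GV replicate 2 or WT MII replicate 2 (highest adjusted p 0.0512). Psmb2 held 87.5 ± 8.91% of its GV mean (log2 fold change -0.18, standard error 0.13, limma adjusted p = 0.239), and its sign turned to 0.05 under median-ratio rescaling. The first Psmb6 entry held 77.4 ± 22.8% (log2 fold change -0.37, standard error 0.23, limma adjusted p = 0.162) and passed in 1 of the 8 fits that left out a library, without WT MII replicate 4 (adjusted p = 0.0365).

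**Figure D2:**
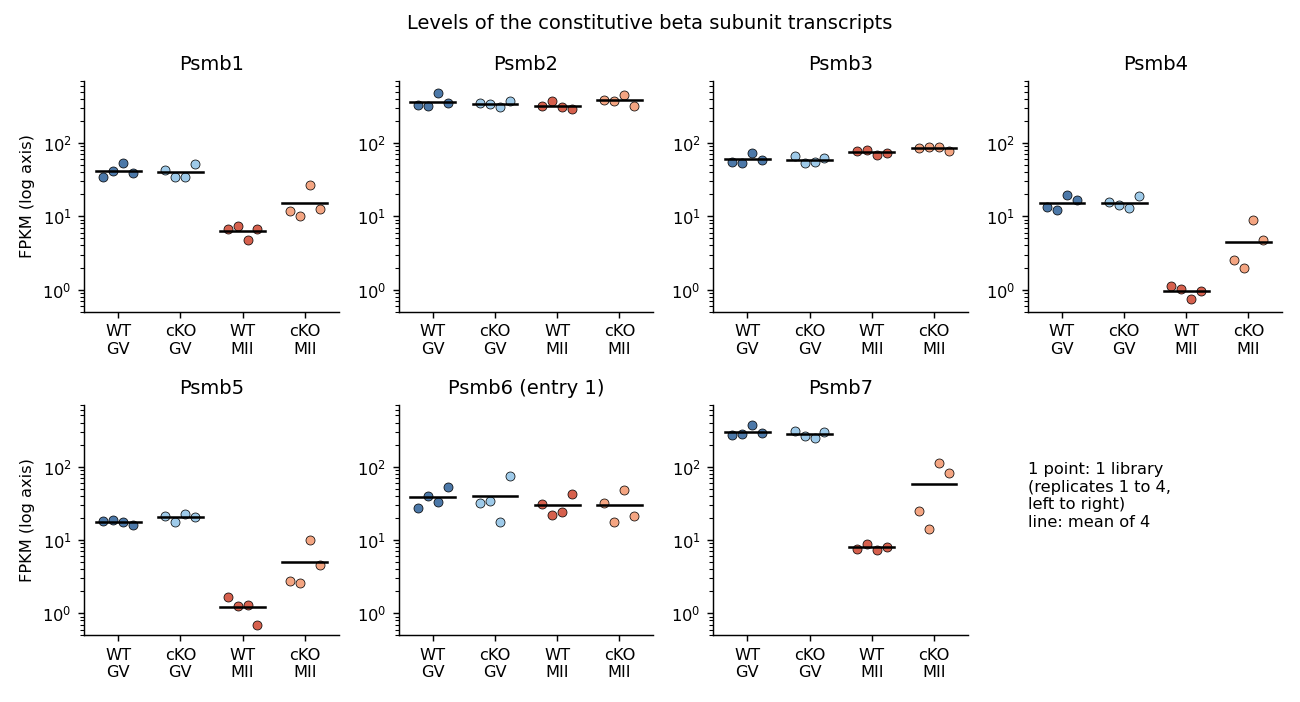
FPKM on a logarithmic axis of Psmb1 to Psmb7 in each of the 16 libraries, by group, with 1 point per library and a line at the mean of 4. Psmb1, Psmb4, Psmb5 and Psmb7 drop from GV oocytes to eggs, with cKO eggs above WT eggs and spread more widely, while Psmb2, Psmb3 and Psmb6 stay near their GV level.

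Across the 16 libraries the log2 levels of Psmb1, Psmb4, Psmb5 and Psmb7 had pairwise Pearson r of 0.977 to 0.994, and Psmb3 ran against them with r of -0.58 to -0.65. Psmb2 and Psmb6 had r of 0.24 to 0.44 with those 4. The points share 2 stages that differ widely, so these values describe the libraries and carry no test. Of 10608 entries with a mean of at least 1 FPKM, those most like the mean log2 profile of Psmb1 to Psmb7 over the same libraries included Psmg4 (r = 0.996), Gm6863 (0.995), Dynlrb1 (0.995) and Mrpl14 (0.994). Psmg4, a chaperone of 20S assembly, averaged 34.6, 38.0, 3.49 and 12.4 FPKM in WT GV, cKO GV, WT MII and cKO MII libraries.

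In the eggs of cKO females the members that fall in WT were higher. Of the 6 tested members that averaged at least 1 FPKM in both groups, Psmb7, Psmb5 and Psmb1 passed against WT eggs, all 3 higher. Over all 9492 tested entries, which include those under 1 FPKM in 1 group, 8.02% passed, 6.53% higher and 1.49% lower. Psmb4 passed too but is left out of these 3, since it was tested only because of its cKO level. For each of these 4 genes, picked by the test on the same values, the lowest cKO egg library lay above the highest WT one. The share of all entries with such a gap was not computed. These calls were fragile: with replicate 1, 2, 3 or 4 of WT MII left out, or replicate 1 or 4 of cKO MII, none of the 7 passed. Omitting replicate 3 of cKO MII left 3 members called, and omitting its replicate 2 left 4. The calls over all entries moved as well, so this was not particular to the members. With WT MII replicate 1 omitted, 12 entries were called higher and 0 lower, and with its replicate 3 omitted, 3 and 0. For WT MII replicates 2 and 4 these numbers were 109 and 5, and 31 and 8. For replicates 1 and 4 of cKO MII they were 166 and 31, and 360 and 58. For its replicates 2 and 3 they were 1024 and 136, and 287 and 30. With no library left out the test called 620 higher and 141 lower of all entries, and 508 and 207 after median-ratio rescaling. Under that rescaling 4 members also passed.

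Psmb7 had 24.6, 14.0, 114 and 82.0 FPKM in the cKO egg libraries, against 7.27 to 8.93 in WT eggs. Replicates 3 and 4 of cKO stood well above replicates 1 and 2, yet all 4 exceeded WT, by a log2 fold change of 2.42 (standard error 0.58, limma adjusted p = 0.0411). The 8 fits that omitted 1 egg library gave 1.95 to 2.95, always in the same direction, with adjusted p from 0.00954 to 0.113.

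Psmb5 had 2.74, 2.61, 9.90 and 4.54 FPKM in cKO eggs against 0.697 to 1.67 in WT eggs. Replicate 3 of cKO was again highest and the groups did not overlap (log2 fold change 1.72, standard error 0.40, limma adjusted p = 0.0373). The estimate stayed between 1.32 and 1.96 without any 1 library, with adjusted p from 0.0211 to 0.0937.

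Psmb4 had 2.51, 1.98, 8.77 and 4.73 FPKM in cKO eggs against 0.736 to 1.11 in WT eggs (log2 fold change 1.88, standard error 0.41, limma adjusted p = 0.0333). Its WT egg mean of 0.953 FPKM is under the filter, so it entered this test only through the cKO libraries and had to differ. Without any 1 library the estimate ran from 1.48 to 2.19, and adjusted p from 0.0114 to 0.0947.

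Psmb1 had 11.6, 10.1, 26.7 and 12.6 FPKM in cKO eggs and 4.79 to 7.33 in WT eggs (log2 fold change 1.16, standard error 0.29, limma adjusted p = 0.0441). Replicate 3 of cKO lay apart from the other 3, and without it the log2 fold change was 0.85, the lowest of the 8 estimates. Adjusted p ran from 0.0261 to 0.112 over those fits.

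Psmb3, Psmb2 and Psmb6 did not pass between genotypes in eggs. Psmb3 had 67.8 to 80.4 FPKM in WT and 77.0 to 89.6 in cKO eggs (log2 fold change 0.19, standard error 0.08, limma adjusted p = 0.143). Psmb2 had 292 to 369 and 322 to 446 FPKM (log2 fold change 0.24, standard error 0.11, limma adjusted p = 0.175). Psmb6, by its first entry, had 22.3 to 41.8 and 17.4 to 48.8 FPKM, with a log2 fold change of -0.08 (standard error 0.32). For these 3 genes WT and cKO eggs overlapped.

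**Figure D3:**
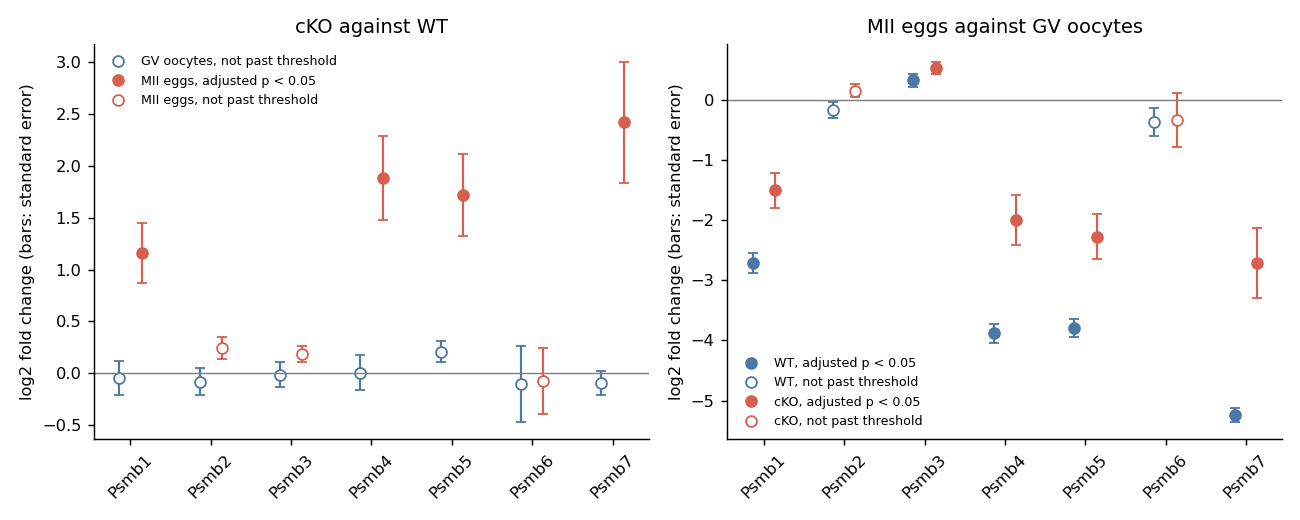
log2 fold changes of Psmb1 to Psmb7 from limma, with standard errors as bars, for cKO against WT (left) and for MII eggs against GV oocytes (right); filled points passed an adjusted p of 0.05. In eggs Psmb1, Psmb4, Psmb5 and Psmb7 lie at 1.16 to 2.42 and the other 3 near 0, and these 4 lie nearer to 0 on the right in cKO than in WT.

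During maturation in cKO females the same 5 members were called as in WT, where 74.0% of 10748 entries tested were called, 51.0% lower and 23.0% higher. Psmb7 fell by a log2 fold change of -2.72 (standard error 0.58, limma adjusted p = 0.00224), Psmb5 by -2.28 (0.38, adjusted p = 4.68e-04), Psmb4 by -2.004 (0.41, adjusted p = 0.00173) and Psmb1 by -1.51 (0.29, adjusted p = 0.00111). Psmb3 rose by 0.53 (standard error 0.10, limma adjusted p = 9.83e-04), and here eggs and GV oocytes did not overlap. Psmb2 had a log2 fold change of 0.15 (limma adjusted p = 0.237) and passed as higher only after median-ratio rescaling (0.40, adjusted p = 0.00403). The WT and cKO egg libraries enter both the maturation and the genotype comparisons, so the values of the 2 kinds of comparison are not independent.

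The difference in maturation between genotypes was then tested as an interaction, for which 0 of the 7 members and 1.26% of 10615 entries passed (1.07% higher and 0.188% lower). Psmb4 (log2 difference 1.88, standard error 0.47, limma adjusted p = 0.0556) and Psmb7 (2.52, 0.64, adjusted p = 0.0595) came nearest, followed by Psmb5 (1.52, 0.43, adjusted p = 0.0863) and Psmb1 (1.21, 0.35, adjusted p = 0.0918). These 4 had unadjusted p of 0.0010 to 0.0036. The number of members called was 4 when replicate 2 of cKO MII was omitted, and 2 when its replicate 1 or 3 was. For Psmb2, Psmb3 and Psmb6 the interaction had limma adjusted p of 0.370 to 0.987.

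Set against the GV mean of the same genotype, cKO eggs held 21.0 ± 16.97% of Psmb7, 29.3 ± 20.1% of Psmb4, 24.01 ± 16.6% of Psmb5 and 37.5 ± 18.9% of Psmb1. Psmb7 was at 8.81, 5.01, 40.8 and 29.3% in cKO egg replicates 1 to 4. For comparison, 390 entries outside the proteasome subunit and assembly genes whose WT GV mean was more than 10 times the WT egg mean kept 6.27 ± 0.388% of their summed level in WT eggs and 12.7, 8.82, 34.3 and 18.9% in cKO eggs. Replicate 3 was highest and replicate 2 lowest in that set and in Psmb7, Psmb5, Psmb4 and Psmb1 alike. That set was chosen by low WT egg values, 3 members meet the same criterion, and its part in the members' difference was not tested.

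**Figure D4:**
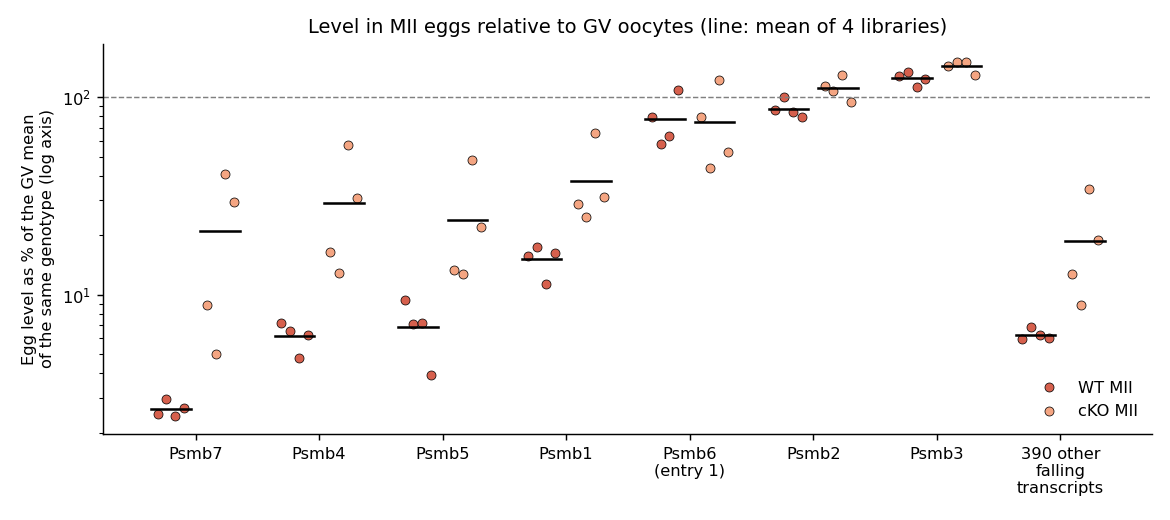
Level of each constitutive transcript in the 4 WT and 4 cKO egg libraries as percent of the GV mean of the same genotype, on a logarithmic axis, with a line at the mean; the last column gives the summed level of 390 other transcripts that fall more than 10-fold in WT. Psmb7 is at 2.42 to 2.98% in WT and 5.01 to 40.8% in cKO eggs, while Psmb3 is above 100% in all 8 egg libraries.

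The immunoproteasome transcripts were near the lower limit of detection in all groups, and none of them passed the filter for testing. Psmb8 had 1 fragment over the 16 libraries, in WT GV replicate 4 (0.0727 FPKM). Psmb9 had 3 fragments on its first entry, in 3 libraries, and 1 on its second. In each of the groups with 0 fragments of Psmb8 the count allows a level of up to 0.0450 to 0.0458 FPKM, taking 3 fragments over the group as the limit, which covers counting error only. The highest observed share was 0.448% of Psmb5 for Psmb8, from WT GV replicate 4 alone, and 0.335% of Psmb6 for Psmb9. These are observed values and not limits.

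Psmb10, the counterpart of Psmb7, was the 1 immunoproteasome gene with fragments in most libraries, 71 in 12 libraries. WT GV oocytes had 6, 2, 10 and 6 fragments and cKO GV oocytes 7, 6, 12 and 5, which is 0.288 ± 0.158 and 0.353 ± 0.0998 FPKM. WT eggs had 0 fragments in all 4 libraries, a limit of 0.0354 FPKM over the group, whereas cKO eggs had 3, 3, 7 and 4, or 0.203 ± 0.0916 FPKM. Over the group, the observed Psmb10 level in cKO eggs was 5.71 times the WT egg limit of 3 fragments, and that in WT GV oocytes 8.02 times. These ratios leave out counting error in the higher group. Its counting interval began at 0.118 FPKM in cKO eggs and at 0.182 in WT GV oocytes. Psmb10 ranges in WT and cKO eggs did not overlap, but the values are below the 1 FPKM floor and no test was made. As a percent of Psmb7, Psmb10 averaged 0.0935 ± 0.0428% in WT GV and 0.129 ± 0.0486% in cKO GV libraries. In eggs it was 0 in WT and 0.536 ± 0.384% in cKO, with up to 1.08% in cKO MII replicate 2. The Psmb7 level beneath that percent averaged 279 FPKM in cKO GV oocytes and 58.6 in cKO eggs. The unstranded reads may also belong to the antisense gene Gm16156.

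Together Psmb8, Psmb9 and Psmb10 made up 0.0375 ± 0.0131% of the summed FPKM of the 10 genes in WT GV oocytes, 0.0502 ± 0.0197% in cKO GV oocytes, 0.0043 ± 0.0087% in WT eggs and 0.0340 ± 0.0091% in cKO eggs. The WT egg share rests on Psmb9 in WT MII replicate 1 alone and is 0 without that library. Markers of immune cells, which use these subunits constitutively, were examined beside them: Ptprc and Cd74 reached at most 0.05 and 0.10 FPKM in any library. Of the 10 markers, H2-Aa (4.15 to 7.25 FPKM) and Cd68 (1.14 to 3.83) averaged 1 FPKM or more in each group. Lyz2 did so in WT eggs, at a mean of 2.25 FPKM with up to 8.88 in 1 library, and the summed level was 7.46 to 8.47 FPKM in WT GV, 7.24 to 8.78 in cKO GV, 8.07 to 18.3 in WT MII and 6.98 to 10.6 in cKO MII libraries. The cumulus and granulosa sum was 11.6 to 13.6 FPKM in WT GV, 14.1 to 16.9 in cKO GV, 17.03 to 20.8 in WT MII and 18.7 to 20.6 in cKO MII libraries. Cyp19a1 and Kitl carry that sum, and the lower granulosa marker Inha averaged 0.146, 0.435, 0.0105 and 0.0460 FPKM in the WT GV, cKO GV, WT MII and cKO MII groups. The part of other cell types in the Psmb10 values was not tested.

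**Figure D5:**
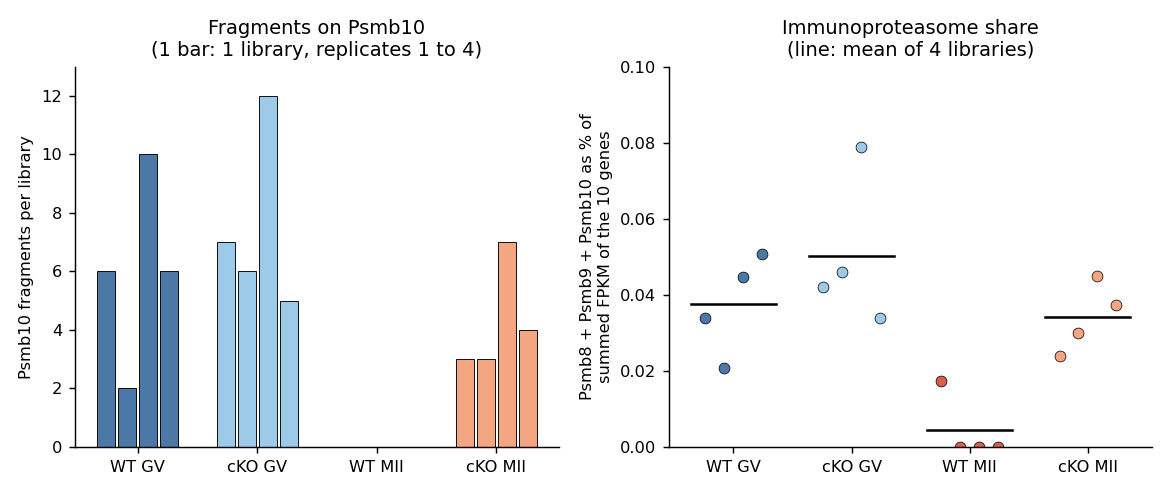
Left, fragments on Psmb10 in each of the 16 libraries, 1 bar per library; right, summed FPKM of Psmb8, Psmb9 and Psmb10 as percent of that of all 10 genes, with a line at the mean of 4 libraries. The 4 WT egg libraries have 0 Psmb10 fragments and the 4 cKO egg libraries 3 to 7, and the share stays below 0.1% in every library.

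Genes of interferon signalling and of antigen processing were measured as a list of 14. In GV oocytes 6 of them could be tested and none passed between genotypes, and in eggs 1 of 5 passed, Jak1, a kinase of interferon receptors (log2 fold change -0.32, standard error 0.06, limma adjusted p = 0.0310). Irf1, an interferon-induced transcription factor of immunoproteasome genes, averaged 89.1 FPKM in WT GV oocytes and 12.6 in WT eggs. Nlrc5, which drives antigen presentation genes, and Tap1, a peptide transporter gene beside Psmb9, had at most 0.03 and 0.05 FPKM. B2m, the light chain of class I molecules, had 27.5 to 62.3 FPKM. The RefSeq promoters of build GRCm38.p6 (250 bases before to 50 after the start) were searched on both strands for 2 interferon motifs, the ISRE (GAAA, any 2 bases, GAAA) and TTCNNNGAA, which 3.44% and 8.30% of 32851 promoters hold.

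Promoter sequences were at hand for 7 of the 10 members, namely Psmb3, Psmb4, Psmb5, Psmb6, Psmb8, Psmb9 and Psmb10. The ISRE was found in that of Psmb3 on the opposite strand, and TTCNNNGAA in that of Psmb8, where it reads as a match on both strands. The windows of Psmb8 (chr17:34197945-34198244) and Psmb9 (chr17:34187281-34187580) lie within the gene spans given above. Bases before those gene starts were thus not searched for Psmb8 and Psmb9. TGACNNNGC, the core of the element bound by NRF1 and NRF2, which control proteasome genes, was found in Psmb5 and Psmb6 and in 12.4% of all promoters. The 4 matches are printed along the gene strand in 29 bases each, with the match in capitals.
Psmb3: acagtgactTTTCACTTTCcgctttccat
Psmb8: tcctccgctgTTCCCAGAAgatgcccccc
Psmb5: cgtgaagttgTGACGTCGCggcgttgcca
Psmb6: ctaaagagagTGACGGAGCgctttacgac
They lie at chr11:97703262-97703290 for Psmb3, chr17:34198088-34198116 for Psmb8, chr14:54618024-54618052 for Psmb5 and chr11:70525338-70525366 for Psmb6. A match is a description of letters only; of the genes that share the last motif, Psmb5 was at 6.89% and Psmb6 at 77.4% of the GV mean in WT eggs.

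The rest of the 20S pathway gives the frame for these values. Of the 6 alpha ring genes other than Psma7, none passed between genotypes in GV oocytes and 1 in eggs, Psma1 (log2 fold change 0.64, standard error 0.07, limma adjusted p = 0.0133), while the alpha ring median was 0.53 beside 0.07 over all entries tested. In WT maturation 3 of these 6 fell and 1 rose, from Psma6 (log2 fold change -3.43) to Psma2 (1.42). Of the 4 tested assembly factors, Psmg3 was higher in cKO eggs (log2 fold change 0.87, standard error 0.19, limma adjusted p = 0.0340), and Pomp, which matures with the beta ring, had 0.36 (limma adjusted p = 0.0641). Of the 3 tested activators none passed between genotypes, and Psme1, which pairs with the interferon-induced Psme2, was detected in 5 libraries with at most 0.16 FPKM. The genes that control proteasome transcription, Nfe2l1, Nfe2l2, Ddi2 and Ngly1, gave 0 of 4 past the threshold in either genotype comparison, with median log2 fold changes of 0.08 in GV oocytes and 0.06 in eggs. Psmb11, the thymus form of Psmb5, averaged 1.19 and 1.396 FPKM in WT and cKO GV oocytes and 0.09 in the eggs of each genotype.

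Where entries share a name the level is less certain. The second Psmb6 entry had 109 fragments over the 16 libraries against 7500 for the first, with group means of 0.435 to 0.549 FPKM, and summing both changed no call. The steps of both entries implied a gene model of 1036 bases, whereas the principal GENCODE transcript of Psmb6 has 798, and the table gives no coordinates. Such differences were not particular to Psmb6. Members with 1 entry had 1036 against 1758 bases for Psmb1, 949 against 1183 for Psmb4 and 1555 against 1311 for Psmb10. For Psmb2 the lengths were close, at 856 and 859. The wide replicate spread of the first entry was seen in all 4 groups, at a coefficient of variation of 29.4% in WT GV, 62.3% in cKO GV, 29.5% in WT MII and 47.5% in cKO MII libraries.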

How the data were processed

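The deposited table gives FPKM values per gene name for 16 libraries. According to the methods and labels, the authors made Smart-seq2 libraries with oligo-dT priming, and per the submitters' processing notes they used TopHat2 2.1.1, Cufflinks 2.2.1 and build mm10; the gene annotation is not given in the sources used here. ERCC RNA was added at lysis but scaling to it is not analysed here. Libraries were grouped by their labels, and replicates are separate samples of a group whose animals are not given, so p-values measure the spread between these samples.

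Values below 1 FPKM were set to 1, as in the study's methods, log2 was taken, and entries whose average in the compared libraries reached 1 FPKM were tested with limma 3.58.1 (R 4.3.3; moderated with an intensity trend, only the groups compared, all 4 for the interaction). P-values were adjusted by Benjamini-Hochberg over all entries tested, with a threshold of 0.05, so low members are understated. Fold changes are on this floored scale. The code was tested on simulated data. Fragment numbers came from the steps between values below 0.5 FPKM and the lengths of single-transcript GENCODE M21 genes, a member's values being taken as whole multiples within 0.02, and counting intervals cover counting error only. Values were handled with pandas 2.3.3 in Python 3.11.15.

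The members and gene lists were chosen with earlier results of these data known. All 10 members were named, together with Psma7, entries from the 5 most like the mean profile of Psmb1 to Psmb7 and, from each list, genes past the threshold; Nlrc5, Tap1, B2m, Pomp, Psme1, Psmb11, the 4 control genes and the cell type markers were named beyond that after their values were seen. Some items are not reported here. The alternatives are given in the closing section. Replicate numbers did not pair libraries: 16 same-number correlations of deviations ran from -0.496 to 0.285.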

Additional observations from a re-analysis of the deposited data

Results flagged for a closer look

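Psmb1 in cKO MII replicate 3, at 26.7 FPKM, lay apart from the other cKO egg libraries, which had 10.1 to 12.6 FPKM. The gap was 0.845 of the group's range; this is above Dixon's critical value for 4 samples. It was the 1 such case among 35 sets of 4 values examined, each with at least 10 fragments, and chance gives about 1 in 20. The same library was the highest of its group for Psmb4, Psmb5, Psmb6 and Psmb7 as well.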

How the results depend on the processing

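The counts of members called in GV oocytes and in maturation of either genotype stayed within 1.5 times under all alternatives run. In eggs, 4 members passed between genotypes, with Psmb4 among them only through its cKO level. The count was 0 without a filter on low values and 2 without the trend, Psmb4 and Psmb5. It was 0 with the replicate number as a block (101 higher and 7 lower of all entries, against 620 and 141). Leaving out 1 library gave 0 to 4, and the calls over all entries moved too. With a mean of at least 5 FPKM the count was 2 of 5 tested, Psmb1 and Psmb7 (adjusted p = 0.0359 and 0.0341), since Psmb4 and Psmb5 were then not tested. Without a filter most entries sit at the floor with no variance, which makes that fit unreliable. For the interaction, 0 members passed, 2 with a mean of at least 5 FPKM, and 0 to 4 with 1 library left out; the replicate block changed no other count of members. No member called in the fit as reported changed sign. Under median-ratio rescaling the sign turned for Psmb4 between genotypes in GV oocytes (-0.027), Psmb2 in WT maturation (0.046) and Psmb6 in the interaction (-0.0045). With 1 library left out, log2 fold changes between genotypes in GV oocytes ran from -0.47 to 0.23 for Psmb6, -0.079 to 0.081 for Psmb3, -0.17 to 0.071 for Psmb1, -0.15 to 0.051 for Psmb2, -0.10 to 0.12 for Psmb4 and -0.15 to 0.00037 for Psmb7; for Psmb6 they ran from -0.35 to 0.14 between genotypes in eggs, from -0.68 to 0.029 in cKO maturation and from -0.31 to 0.40 in the interaction. The immunoproteasome shares moved by less than 1 SD, although that of WT eggs was 0 without WT MII replicate 1. The cause of these changes was not tested. With 10.5 to 15.7 M fragments per library, Psmb8 and Psmb9 could not be compared between groups.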
